A study of Mus musculus with 6 samples.

Results

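The clusters that run from Mir290a to Mir295 and from Mir302b to Mir367, called the Mir290 cluster and the Mir302 cluster here, hold the microRNA genes best known from pluripotent mouse cells. The genes described here are those with an array row whose annotation carries a single symbol from Mir290 to Mir295, Mir302 with any letter, or Mir367. The rule found 7 genes of 30098 genes with a row, and none of the 7 had more than 1 row. From the Mir290 cluster these were Mir290b and Mir292b, and from the Mir302 cluster they were Mir302a, Mir302b, Mir302c, Mir302d and Mir367. The better-known members of the Mir290 cluster lie on 2 rows that carry several symbols each. One of those rows names Mir290a with its older symbol Mir290, and the other names D7Ertd143e, a long non-coding RNA that RefSeq annotates as overlapping the cluster, together with Mir291a, Mir291b, Mir292, Mir293, Mir294 and Mir295. A row with several symbols names no single gene, so these 2 rows are outside the rule. They are described as rows of the cluster and were singled out after their values had been seen.

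The arrays measured RNA of aggregates of R1 mESCs, 1 line of mouse embryonic stem cells, that had grown inside core-shell microcapsules. After pre-differentiation there were 3 arrays, of aggregates kept 7 days in embryonic stem cell medium with leukaemia inhibitory factor (LIF) and then 3 days in regular DMEM with BMP-4 and bFGF. Before pre-differentiation there were also 3 arrays, of aggregates that had only the 7 days in the LIF medium, which contains Knockout serum. Growth factors, base medium and days of culture therefore differ together between the groups, and each array is labelled a biological replicate.

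MicroRNA genes of a cluster are copied into 1 long primary transcript. The Drosha and Dgcr8 complex cuts hairpins out of it, Dicer1 trims each hairpin to a short duplex, and an Argonaute protein carries 1 strand to messenger RNAs that pair with its seed, bases 2 to 8. In mouse embryonic stem cells the Mir290 cluster gives the most abundant microRNAs, which help the cells pass into S phase by repressing inhibitors of the cell cycle. The Mir302 cluster is known for its expression in the epiblast around implantation and for its use in reprogramming. The arrays were made with a labelling kit for whole transcripts, so a signal does not say how much mature microRNA was present.

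The mature sequences show why the clusters are treated together. They are printed from RefSeq (GRCm38.p6), with the seed in capitals. For Mir302a the RefSeq table gives only the 5p arm, so no 3p arm of it is shown, though its hairpin holds the bases AAGUGCU. The first group holds the 5 mature arms of that table with AAGUGCU as their seed, all of them 3p arms. They are on chromosome 3 for Mir302b and Mir302d and on chromosome 7 for the others.
mmu-miR-302b-3p: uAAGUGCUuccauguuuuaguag
mmu-miR-302d-3p: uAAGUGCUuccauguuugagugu
mmu-miR-291a-3p: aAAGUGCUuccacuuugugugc
mmu-miR-294-3p: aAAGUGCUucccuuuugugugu
mmu-miR-295-3p: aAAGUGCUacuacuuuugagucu
The 3p arms of Mir302c and Mir290a carry seeds close to it.
mmu-miR-302c-3p: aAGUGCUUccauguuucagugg
mmu-miR-290a-3p: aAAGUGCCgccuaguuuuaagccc
Mir367 is the member of the Mir302 cluster with another seed, AUUGCAC, which 6 other mouse genes in the RefSeq table share: Mir25, Mir32, Mir363, Mir92-1, Mir92-2 and Mir92b.
mmu-miR-367-3p: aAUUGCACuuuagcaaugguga
The 2 genes of the Mir290 cluster that have a row of their own have other seeds in their 3p arms, and no further arm in that table carries these.
mmu-miR-290b-3p: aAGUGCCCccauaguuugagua
mmu-miR-292b-3p: aAGAGCCCccaguuugaguau

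Mir290b and Mir292b are antisense genes. Both are annotated on the minus strand, whereas the rest of the Mir290 cluster is on the plus strand. The Mir290b hairpin of 58 bases is the exact reverse complement of bases 13 to 70 of the 83-base Mir290a hairpin, shown here in capitals.
Mir290a hairpin: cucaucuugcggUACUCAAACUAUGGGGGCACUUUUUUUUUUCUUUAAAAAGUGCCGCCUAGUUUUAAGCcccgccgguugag
In the same way the Mir292b hairpin of 62 bases mirrors bases 10 to 71 of the 82-base Mir292 hairpin. The sources used here do not give the strand that each row's probes read. Signal of an antisense hairpin and of the sense transcript opposite it can therefore not be told apart.

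Array medians of the log2 signal were between 4.17 and 4.47, and the median log2 change over all rows, after minus before, was -0.18. Background was put at 4.24, the level under which 95% of 1527 odorant and pheromone receptor genes had their mean signal, since such genes should be silent in these cells. The aggregates carried markers of pluripotency before pre-differentiation: the mean log2 signal over 12 naive pluripotency genes was 12.23 to 13.07 in the before arrays. After pre-differentiation it was 11.81 in replicate 1, against 6.49 and 7.02 in replicates 2 and 3, so the after arrays were unlike each other. The mean over 10 extraembryonic endoderm genes was 12.80 to 13.33 in the after arrays and 8.04 to 8.41 in the before arrays, and 7 of the 10 were higher at an adjusted p under 0.05. At that threshold 1 of 6 mesoderm genes was higher and 1 of 6 germ cell genes lower. Of 12 naive pluripotency, 10 primed epiblast, 8 trophoblast and 6 cardiomyocyte genes 0 passed, beside 1.23% higher and 0.651% lower over all genes. In RNA of whole aggregates, fewer cells of a type and less RNA per cell cannot be told apart. The part of these shifts in the results below was not tested.

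None of the 7 genes passed limma's test at an adjusted p under 0.05 (0 higher and 0 lower). Over all 72657 rows tested 0.662% were lower and 0.625% higher at that threshold. At an unadjusted p under 0.05, 2 of the 7 were lower (Mir292b and Mir302c) and 0 higher, beside 18.6% of all rows lower. The same 2 genes had all their after arrays below all their before arrays, a pattern that 27.0% of all rows showed. By the exact permutation test over samples, 3 arrays against 3 cannot give a p below 0.1. The median log2 change was -0.35 over the 7 genes, which is a description, beside -0.18 over all rows.

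**Figure D1:**
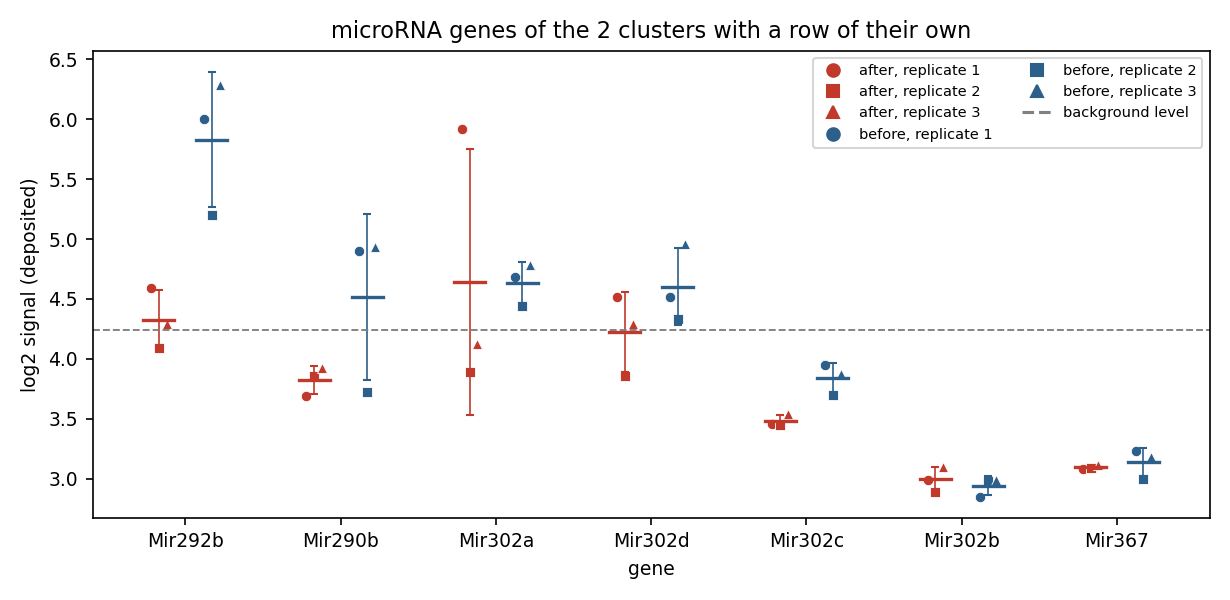
Log2 signal of each of the 7 genes on every array, with after arrays in red to the left of before arrays in blue, bars for the mean and SD of 3 arrays, and a dashed line at the background level of 4.24. Mir292b is the gene whose after arrays (4.09 to 4.59) all lie well below its before arrays (5.20 to 6.29), and Mir302a is set apart by after replicate 1 at 5.92; levels of different genes cannot be compared on this axis.

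Mir292b had the lowest log2 change of the 7. Its log2 signal was 4.59, 4.09 and 4.29 in after replicates 1, 2 and 3, against 6.0, 5.20 and 6.29 in before replicates 1, 2 and 3. The after arrays were thus near the background level and all below the before arrays. The log2 change was -1.51 with a standard error of 0.31 and a 95% interval of -2.26 to -0.75 (adjusted p = 0.0756 from limma, exact permutation p = 0.1, n = 3 each). Without after replicate 1 it was -1.64 (adjusted p = 0.0538), so the gene did not pass in that fit either.

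Mir290b differed less clearly between the groups. Its log2 signal was 3.69, 3.86 and 3.92 after and 4.90, 3.72 and 4.93 before pre-differentiation. Before replicate 2 lay within the after arrays, and the other before arrays lay about 1 log2 unit above them. With a standard error of 0.35, its log2 change was -0.69 (95% interval -1.54 to 0.16, adjusted p = 0.265 from limma), and without before replicate 2 it was -1.09 (adjusted p = 0.0566). The after mean of 3.82 was below the background level and the before mean of 4.52 above it.

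The rows of the Mir290 cluster with several symbols differed more between the groups. The row that names D7Ertd143e and 6 microRNA genes had a log2 signal of 8.18, 4.54 and 5.12 in after replicates 1, 2 and 3, against 11.49, 10.71 and 11.59 in the before replicates. Every after array was below every before array, and after replicate 1 lay between the other after arrays and the before arrays. This made a log2 change of -5.31 with a standard error of 0.96 (95% interval -7.68 to -2.94) and an adjusted p of 0.0623 from limma, which misses the threshold. Without after replicate 1 the change was -6.43 (adjusted p = 0.00246), in a fit where 5.21% of all rows were lower at an adjusted p under 0.05.

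The row that names Mir290a and Mir290, the first hairpin of the cluster, had the same shape. Its log2 signal was 8.60, 5.31 and 5.77 after and 11.17, 10.95 and 11.29 before pre-differentiation. The before arrays spanned less than the distance to any after array. Its log2 change was -4.58 with a standard error of 0.86 (95% interval -6.68 to -2.47, adjusted p = 0.0657 from limma), and without after replicate 1 it was -5.60 (adjusted p = 0.00130). Both rows stayed above the background level in all 3 after arrays.

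**Figure D2:**
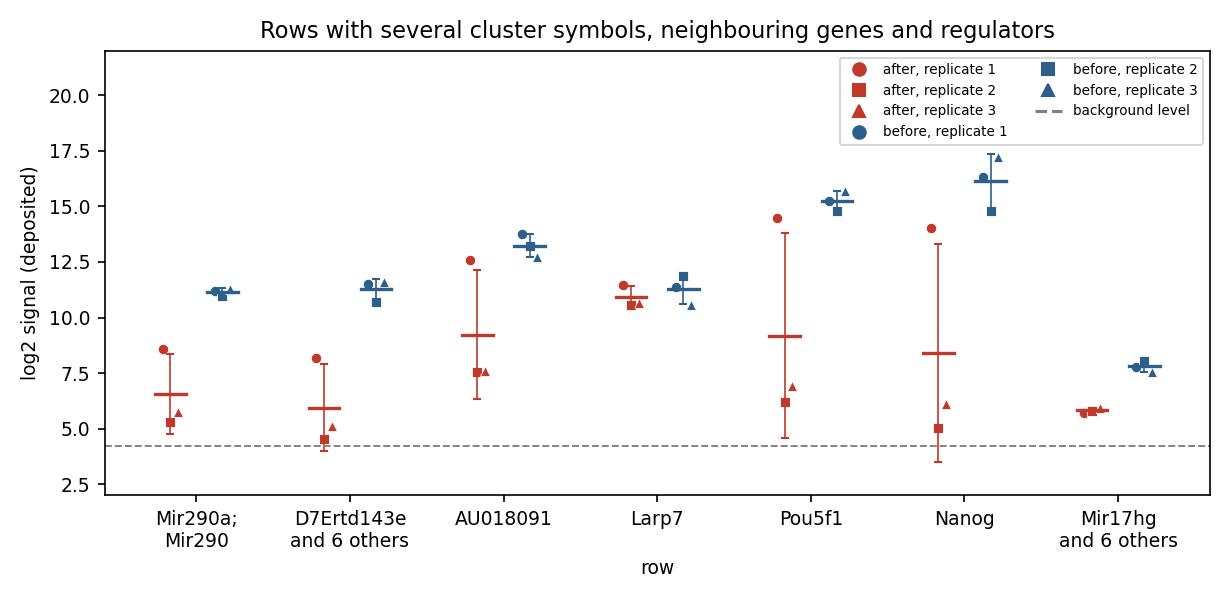
Log2 signal on every array of the 2 rows with several symbols of the Mir290 cluster, of AU018091, Larp7, Pou5f1 and Nanog, and of the Mir17hg row; after arrays in red are left of before arrays in blue, with bars for mean and SD of 3 arrays and a dashed line at the background level. After replicate 1 of the D7Ertd143e row (8.18) is well below its before arrays, whereas Pou5f1 in that array (14.48) is close to its before arrays (14.81 to 15.71).

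In the Mir302 cluster the 5 hairpin rows had low signals in both groups. Mir302b, Mir302c and Mir367 had both group means below the background level, so their values cannot show whether these genes changed. Mir302b was at 2.99, 2.89 and 3.10 after and 2.85, 2.98 and 2.99 before, and its groups overlapped (log2 change 0.05, adjusted p = 0.786). Mir367, whose 3p seed is AUUGCAC, was at 3.08, 3.09 and 3.11 after and 3.23, 3.00 and 3.18 before, and its groups overlapped too (log2 change -0.04, adjusted p = 0.833). The 95% intervals of these log2 changes were -0.23 to 0.34 for Mir302b and -0.32 to 0.24 for Mir367.

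For Mir302c, whose means were both below background, all after arrays lay under all before arrays by a small amount. It was at 3.46, 3.45 and 3.54 after and 3.95, 3.70 and 3.87 before (log2 change -0.35, 95% interval -0.64 to -0.06, adjusted p = 0.154 from limma). Mir302d was at 4.52, 3.86 and 4.29 after and 4.52, 4.33 and 4.96 before, and the groups overlapped (log2 change -0.38, 95% interval -0.97 to 0.22, adjusted p = 0.362). Without after replicate 2 or before replicate 3 the log2 change of Mir302d was -0.195 or -0.198. Relative to the median of all rows the changes were -0.17 for Mir302c and -0.19 for Mir302d.

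Mir302a differed most among the after arrays. Its log2 signal was 5.92, 3.89 and 4.12 in after replicates 1, 2 and 3, against 4.68, 4.44 and 4.78 in the before replicates. After replicate 1 lay above all before arrays, and after replicates 2 and 3 lay below all of them. The group means were 4.64 ± 1.11 after and 4.63 ± 0.18 before (SD, n = 3 each), a log2 change of 0.01 (95% interval -1.33 to 1.35, adjusted p = 0.993 from limma). Without after replicate 1 the log2 change was -0.63 (adjusted p = 0.0951), and without before replicate 2 it was -0.09, so the sign of this value near 0 turned in both fits. On after replicate 1 the mean over 10 primed epiblast genes was 6.87, against 6.04 and 6.08 in the other after arrays and 6.17 to 7.28 in the before arrays. Dnmt3b, Dnmt3a, Otx2, Nodal and Pou3f1 had their highest after value in that array, and Fgf5, Sox3, Zic2, Lef1 and Sall2 did not. A link to Mir302a was not tested. Mir302d also had its highest after value in after replicate 1 (4.52, against 3.86 and 4.29), within its before arrays (4.33 to 4.96). Mir302b, Mir302c and Mir367 were below the background level in that array, so they cannot show whether they share the high value of Mir302a.

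The genes whose profile over the 6 arrays came nearest to a row were ranked by the root mean square difference of log2 signals, each centred on its own mean, over 13767 named genes above background. Nearest to Mir292b were Zfp935 (0.0831), Zfp493 (0.0897), Fbxo27 (0.0906), Mir1967 (0.0924) and Zfp607a (0.104). Nearest to Mir302a were Tmem63c (0.12), Tc2n (0.137), Fetub (0.174), Prame (0.184) and Ace (0.191). Tmem63c was at 6.04 in after replicate 1, against 4.06 and 4.08 in the other after arrays and 4.74 to 4.75 in the before arrays. Nearest to the D7Ertd143e row of the Mir290 cluster were Zfp936 (0.0942), Zfp977 (0.286), EU599041 (0.354), Rnf125 (0.425) and Hsf2bp (0.481). Zfp936, whose name marks a zinc finger gene, was at 12.51, 8.72 and 9.20 after and 15.54, 14.92 and 15.69 before. With 6 arrays in 2 groups such a ranking is a description.

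Few other microRNA genes passed the test. Of 598 other microRNA genes with a row, 2 were lower and 0 higher by limma, so that 0.334% were lower. The 598 were taken by symbol and include host transcripts such as Mir100hg and Mir99ahg. Some gene copies, such as Mir669a-4 and Mir669a-5, have the same log2 change, so not all of the 598 are separate measurements. Other scalings gave calls in both directions, with 1 higher and 1 lower under median centring and 1 higher and 4 lower under quantile normalization. The median log2 change of the 598 was -0.18, 16.1% were lower at an unadjusted p under 0.05 (96 genes, with 14 higher), and 22.7% had all after arrays below all before arrays. Both group means were at or below the background level in 283 of them. The genes that fell were Mir1950, with a log2 change of -2.0 (adjusted p = 0.0354), and Mir3068, with -1.05 (adjusted p = 0.0495). Mir1950 was at 9.36, 9.16 and 9.29 after and 11.35, 10.84 and 11.61 before, with no overlap and no array apart. Their counts rest on single arrays: without after replicate 1, 9 were lower and 4 higher, and without after replicate 2, after replicate 3, before replicate 1 or before replicate 3, 0 passed; without before replicate 2, 1 was lower.

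**Figure D3:**
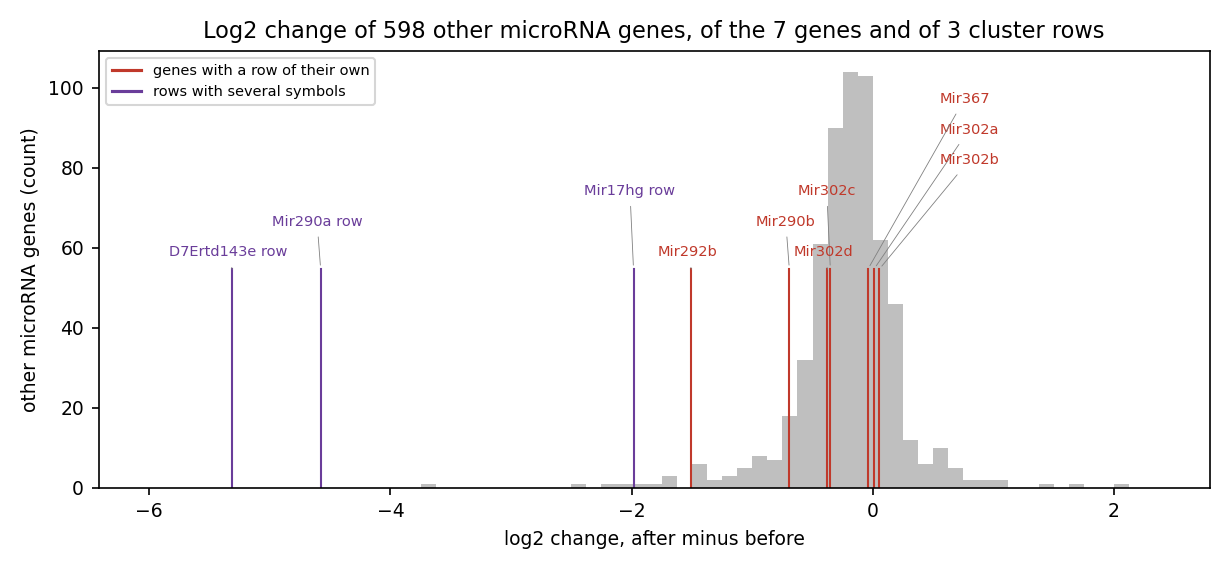
Number of other microRNA genes (598 in all) by log2 change, after minus before, in grey, with red lines at the 7 genes and purple lines at 3 rows that carry several symbols. The Mir302 cluster genes lie within the grey peak, Mir292b (-1.51) lies in its lower tail, and the 2 rows of the Mir290 cluster lie at -5.31 and -4.58, below the lowest other microRNA gene at -3.66.

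Relatives by seed or by cluster were lower in mean in 8 of 9 cases, beside 75.3% of other microRNA genes. None of the 9 passed the test (0 higher and 0 lower). Mir20b, Mir32, Mir106b and Mir350, 4 of the 9, had both group means below the background level, so their values cannot show whether they changed. By unadjusted p under 0.05, 5 were lower, beside 16.1% of other microRNA genes. The 9 are genes of related clusters and genes that share a seed of the Mir290 or Mir302 cluster. Mir18b, Mir19b-2, Mir20b and Mir106b entered by cluster and share none of those seeds at bases 2 to 8. Of the 5, Mir18b, Mir19b-2, Mir363 and Mir92-2 lie in the same cluster on the X chromosome. Mir363 carries the seed of Mir367 and was at 4.12, 3.68 and 3.63 after and 5.74, 7.21 and 5.01 before (log2 change -2.17, adjusted p = 0.105). Mir92-2, a gene of the same cluster on the X chromosome with that seed, was at -1.32 (adjusted p = 0.0996), and Mir18b, a neighbour in that cluster, at -2.40 (adjusted p = 0.130), both as log2 changes. Mir32 and Mir92b, which share the seed too, had log2 changes of -0.24 and -0.32 (adjusted p = 0.279 and 0.166). Mir350, whose seed is that of the Mir291b 3p arm, had a log2 change of 0.17 (adjusted p = 0.641).

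Genes of the related clusters also lie on rows with several symbols. The row of Kis2 and Mir106a had a log2 change of -1.06 and did not pass (adjusted p = 0.188 from limma). Nor did the row of Mcm7, Mir93 and Mir25, with a log2 change of -1.64 (adjusted p = 0.117 from limma). Over all rows 0.662% were lower at the threshold. The related row that passed was that of Mir17hg, the host transcript of the Mir17 cluster, which carries 7 symbols. It was at 5.71, 5.80 and 5.94 after and 7.77, 8.05 and 7.57 before, with replicates close together in both groups. It fell by 1.98 on the log2 scale, with a standard error of 0.16 (adjusted p = 0.0245 from limma). In contrast to the rows of the Mir290 cluster, after replicate 1 was at the low end of its after arrays. The row did not pass without after replicate 2 (adjusted p = 0.126), after replicate 3 (0.114), before replicate 1 (0.154) or before replicate 3 (0.0616).

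Of the let-7 genes, which are processed late in differentiation when Lin28a and Lin28b fall, 0 of 12 passed. At an unadjusted p under 0.05 there were 2 lower and 0 higher, beside 16.1% of other microRNA genes lower. Both group means were at or below the background level in 6 of the 12. The median log2 change of the 12 was -0.23. It was -1.42 for Mirlet7d (adjusted p = 0.118), -1.21 for Mirlet7f-1 (adjusted p = 0.142) and -0.66 for Mir98 (adjusted p = 0.279). In the epithelial miR-200 family 0 of 4 passed (0 at an unadjusted p under 0.05), among them Mir200b at 0.46, Mir141 at 0.25 and Mir200c at -0.18. Both group means were at or below the background level in 3 of the 4, Mir141 and Mir200c among them. Of 8 heart and muscle microRNA genes 0 passed (0 at an unadjusted p under 0.05), and all 8 were at or below background in both groups, among them Mir499 at -0.38, Mir133a-1 at -0.25 and Mir208a at -0.23.

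The genes around the clusters had unlike values, and none passed the test. The Mir302 cluster spans 580 bases on chromosome 3 and overlaps Larp7, which RefSeq has on the opposite strand. Larp7, which encodes a protein that binds the small RNA 7SK, was at 11.47, 10.58 and 10.67 after and 11.36, 11.86 and 10.57 before, with overlapping groups (log2 change -0.36, 95% interval -1.34 to 0.62, adjusted p = 0.583). Zgrf1, the next gene beyond it, had a log2 change of -1.12 (adjusted p = 0.0780).

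The Mir290 cluster spans 2216 bases on chromosome 7 and overlaps Nlrp12, annotated on the opposite strand. Nlrp12, an immune receptor gene, was near the background level in both groups (3.93 to 4.06 after and 4.31 to 4.36 before, log2 change -0.35, adjusted p = 0.132). AU018091, an annotated coding gene on the side of Mir290a, was at 12.57, 7.54 and 7.59 after and 13.75, 13.22 and 12.74 before (log2 change -4.0, standard error 1.40, adjusted p = 0.161). Its after replicate 1 was just below the before arrays, unlike the rows of the cluster beside it.

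Factors known to occupy the promoters of both clusters in embryonic stem cells include Pou5f1 (OCT-4), Sox2, Nanog and Tcf7l1. Of 13 regulators, hosts and neighbours with a row 0 passed the test, while 9 were lower and 0 higher by unadjusted p under 0.05, beside 19.7% lower and 11.0% higher over all genes. Pou5f1 was at 14.48, 6.18 and 6.90 after and 15.25, 14.81 and 15.71 before (log2 change -6.07, adjusted p = 0.169). Sox2 was at 13.13, 8.97 and 9.76 after and 13.33, 13.54 and 13.04 before (log2 change -2.68, adjusted p = 0.193). For Nanog the log2 change was -7.73 (adjusted p = 0.139), for Prdm14 -3.69 (0.108) and for Esrrb -3.19 (0.141). It was 0.13 for Tcf7l1 (adjusted p = 0.900), 0.49 for Klf4 (0.398), 0.20 for Myc (0.898) and -0.80 for Mycn (0.179). In after replicate 1 Pou5f1 and Sox2 were near their before arrays while the D7Ertd143e row was more than 2 log2 units below its own. The naive pluripotency genes were unlike each other in that array. Dppa5a at 18.25 lay within its before arrays (17.58 to 19.10), and Nr0b1 at 10.56 was more than 2 log2 units below its own (12.66 to 14.34). Whether the place of after replicate 1 differs between rows beyond the spread of replicates could not be tested on 1 array. Without after replicate 1, 7 of the 13 were lower, where 7.49% of all 30098 genes were.

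Genes known as targets of the Mir290 or Mir302 cluster in mouse or human stem cells had higher means more often than not after pre-differentiation, but 0 of 20 passed limma's test. Over all genes 1.23% were higher and 0.651% lower. The mean was higher in 13 of the 20, beside 31.7% of all genes. By unadjusted p under 0.05 there were 11 higher and 3 lower, beside 11.0% and 19.7% of all genes, and the median log2 change was 1.27, beside -0.16 over all genes. All after arrays lay above all before arrays for 10 of the 20, beside 11.8% of all genes, and below them for 3, beside 28.2%. Without after replicate 1, 9 were higher and 1 lower, where 7.81% of all genes were higher and 7.49% lower. Of the 20 targets 0 had both group means at or below the background level, whereas 10224 of 30098 genes had. The list was chosen with earlier results of these data known, so these shares are a description.

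Among inhibitors of the cell cycle, Cdkn1a, which encodes p21, was at 12.96, 16.14 and 16.43 after and 12.08, 12.76 and 11.77 before (log2 change 2.97, standard error 0.95, adjusted p = 0.143). After replicate 1 was close to the before arrays, and the other after arrays were more than 3 log2 units above them. The Hippo kinase genes Lats1 and Lats2 had log2 changes of 1.75 (adjusted p = 0.141) and 1.44 (adjusted p = 0.128). Rbl2, a pocket protein of the retinoblastoma family and a known mouse target of the Mir290 cluster, had one of 0.17 (95% interval -0.46 to 0.80, adjusted p = 0.688), and its relative Rbl1 one of -0.81 (adjusted p = 0.265). For Wee1, an inhibitor of entry into mitosis, it was -0.25 (adjusted p = 0.738).

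Among receptors, Tgfbr2, the type II receptor for TGF-beta, was at 8.2, 10.99 and 11.81 after and 5.98, 5.59 and 6.26 before (log2 change 4.39, standard error 0.92, adjusted p = 0.0775). Bmpr2, the type II receptor for BMP, known as a target in human cells, was at 11.25, 13.37 and 13.41 after and 8.78, 9.28 and 8.34 before (log2 change 3.87, standard error 0.64, adjusted p = 0.0541). In both genes all after arrays were above all before arrays. The secreted Nodal inhibitors Lefty1 and Lefty2 had lower means after pre-differentiation, with log2 changes of -1.775 (adjusted p = 0.0718) and -2.14 (adjusted p = 0.112). Lefty1 was at 4.26, 3.92 and 3.62 after and 4.99, 5.95 and 6.18 before.

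The other targets were spread widely. Log2 changes were 3.21 for Nr2f2, a nuclear receptor gene (adjusted p = 0.117), 2.57 for the kinase gene Akt1 (0.101), 1.96 for Tnfaip1 (0.107) and 1.34 for Mbd2, which binds methylated DNA (0.0864). They were 1.19 for the small GTPase gene Rhoc (0.160), 0.85 for the deubiquitinase gene Cyld (0.170) and 1.62 for the Wnt inhibitor Dkk1 (0.377). Dkk1 was at 10.64 in after replicate 1, against 6.65 and 7.09 in the other after arrays and 5.86 to 7.08 before, so that its mean rests on that array. Lower values were -0.04 for the caspase gene Casp2 (0.936), -0.35 for Ei24 (0.344) and -2.04 for Fbxl5 (0.124). Each value in brackets is an adjusted p from limma.

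**Figure D4:**
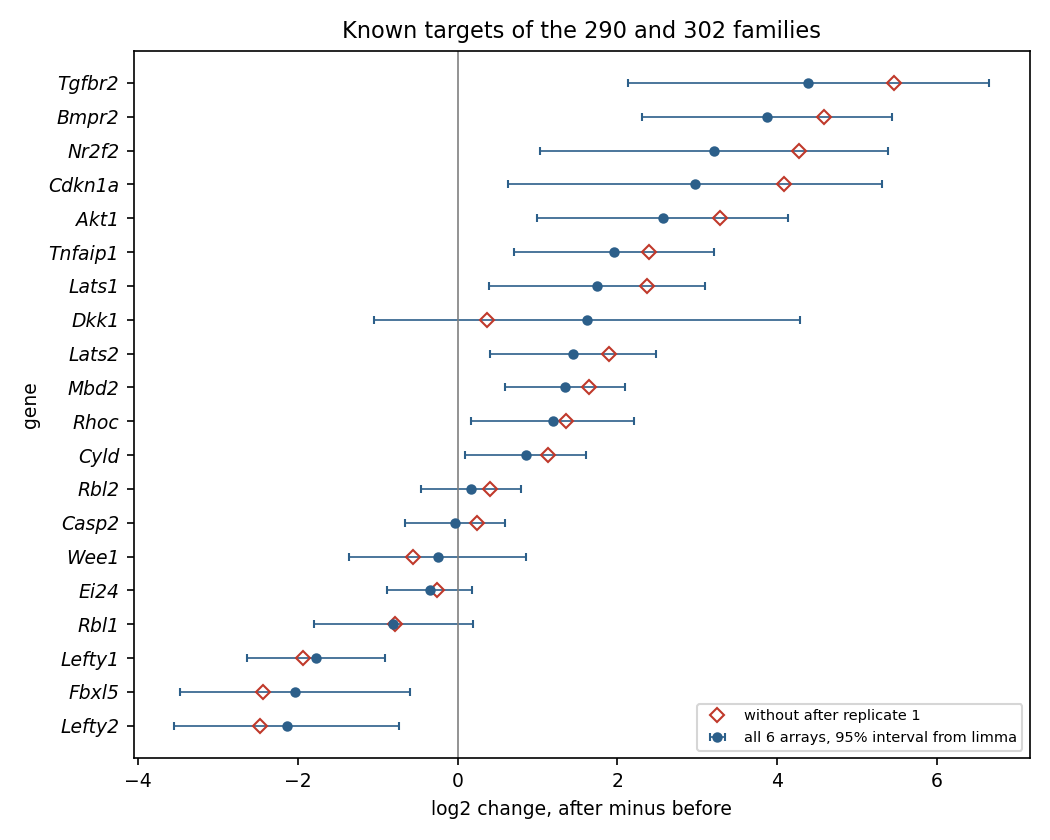
Log2 change, after minus before, of 20 known targets of the Mir290 and Mir302 clusters, with filled circles and 95% intervals from limma on all 6 arrays and open diamonds for the fit without after replicate 1. Tgfbr2 (4.39) and Bmpr2 (3.87) are at the top and Lefty2 (-2.14) at the bottom, and 0 of the 20 passed the adjusted threshold with all arrays.

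The machinery that makes and uses microRNAs showed no call, with 0 of 18 measured genes past the threshold and a median log2 change of 0.01. By unadjusted p under 0.05, 3 were higher and 3 lower, beside 11.0% higher and 19.7% lower over all genes. For the nuclear step, the log2 change of Drosha was -0.15 (adjusted p = 0.878) and that of Ddx17, a helicase of its complex, -0.46 (0.232). For export, the log2 change was -0.24 for Xpo5 (0.772) and -1.44 for Ran (0.112), the GTPase that works with it. Dicer1 had a log2 change of 0.33 (95% interval -1.32 to 1.97, adjusted p = 0.770), and for its partners Tarbp2 and Prkra it was -0.45 (0.135) and 0.19 (0.817). Among Argonaute genes the log2 change was 0.43 for Ago1 (0.682), 1.34 for Ago2 (0.197) and 0.38 for Ago3 (0.412). The effector genes Tnrc6a and Tnrc6c had log2 changes of 0.905 (0.239) and -0.225 (0.682).

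Tut7, which adds uridines to let-7 precursors, came nearest to the threshold. It was at 9.35, 9.93 and 9.94 after and 8.58, 8.61 and 8.46 before, with all after arrays higher (log2 change 1.19, standard error 0.19, adjusted p = 0.0530 from limma). Its relative Tut4 had a log2 change of 0.95 (adjusted p = 0.178). For the let-7 inhibitors Lin28a and Lin28b it was -0.84 (adjusted p = 0.381) and -1.10 (adjusted p = 0.158), for Trim71, itself a let-7 target, -0.95 (adjusted p = 0.562) and for the exonuclease gene Dis3l2 0.17 (adjusted p = 0.696).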

How the data were processed

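Biotin-labelled total RNA of 6 samples was hybridised to Clariom D mouse arrays. The deposited values are log2 signals, 1 per row and array, which the authors made in Transcriptome Analysis Console. Of its version, background correction, summarization and genome build none is given in the sources used here, so no coordinates are printed. The number of arrays limits the precision. After 31 rows starting with AFFX were left out, 72657 of 72688 rows entered lmFit and eBayes of limma 3.58.1 (R 4.3.3), two-sided, after minus before. P-values were adjusted by Benjamini-Hochberg over all rows, with a threshold of 0.05. The labels call the arrays biological replicates without naming separate cultures, so p-values measure the spread between these samples. Symbols of 330 rows were updated through RefSeq, and a gene is its brightest row. The members and lists were chosen with earlier results of these data known. Named are all members, all measured genes of the target, biogenesis and regulator lists, other microRNA genes past the threshold, up to 3 genes of each microRNA family by absolute change, and the 5 nearest profiles. All 7 genes had sequences in the RefSeq table. The fit was tested on simulated arrays. Alternatives were quantile normalization, median centring, only rows above background, all control rows left out, a trend with robust variances, the equal-variance test that the methods name for other assays, the mean over a symbol's rows, a block for the replicate number, and omission of each array.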

Additional observations from a re-analysis of the deposited data

How the results depend on the processing

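Neither cluster had a gene past the threshold under any setting other than the equal-variance test that the methods name for other assays, without adjustment. That gave 1 for the Mir290 cluster (Mir292b), 1 for the Mir302 cluster (Mir302c), 5 relatives by seed or cluster and 10 targets. It also gave 3 biogenesis genes, 98 other microRNA genes and 3 genes of the list of regulators, hosts and neighbours. After adjustment it gave 0 other microRNA genes. With only rows above background, 1 target, 1 biogenesis gene and 6 other microRNA genes passed, and so did both rows of the Mir290 cluster; with control rows left out, 1, 1 and 4 passed. These settings test fewer rows. Quantile normalization gave 5 other microRNA genes, median centring 1 biogenesis gene, and a trend with robust variances 0 other microRNA genes; the cause was not tested. Leaving out each array in turn, targets past the threshold ranged from 0 to 10 and biogenesis genes from 0 to 2. Regulators, hosts and neighbours together ranged from 0 to 7, with AU018091 and Zgrf1 among the 7, and other microRNA genes from 0 to 13. Each count was highest without after replicate 1.

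The median log2 change of the Mir302 cluster was -0.04 as deposited, 0.084 with quantile normalization and 0.141 with median centring, which move the median of all rows from -0.18 to -0.02 and 0. Leaving out each array, it ranged from -0.339 to 0.003. Mir367 turned to 0.084 and 0.141 under those scalings. Without 1 array, Mir302a ranged from -0.627 to 0.386 (-0.089 without before replicate 2), Mir302d from -0.523 to -0.195, Mir290b from -1.089 to -0.486, Mir302b from -0.001 to 0.104 and Mir367 from -0.109 to 0.003.

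Under a replicate block, 0 other microRNA genes and 0 of the 7 genes passed, and the Mir17hg row did not. The samples share only a number: deviations of same-numbered arrays correlated at -0.034, 0.145 and -0.082. Counting both rows with several symbols as members, an alternative chosen after seeing the data and run on all rows and arrays only, gave 0; both rows also passed without after replicate 1.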
